A study of Mus musculus with 11 samples.

Results

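The transcription factor genes *Zic1* (uc009rag.1), *Zic2* (uc007vbd.1) and *Zic5* (uc007vbb.2) and 5 further genes, *Avpr1a* (uc007hge.1), *Ecel1* (uc007bwd.1), *Igfbpl1* (uc008ssy.1), *Klhl14* (uc008efi.1) and *Ankfn1* (uc007kwj.1), were each followed through 1 transcript in ribosome-associated RNA of hippocampal neurons. They are 8 of the 63244 UCSC transcripts counted. They were chosen by transcript identifier, as Zic factors and genes linked to the septum. All 8 passed the filter on low counts (at least 1 count in at least 5 libraries, 29599 transcripts), and all 8 had counts in each of the 11 libraries. The mice were CaMKIIα-Cre:RiboTag males of 2 to 3 months, in which Cre driven by the CaMKIIα promoter tags the ribosomal protein Rpl22 with a hemagglutinin epitope in forebrain excitatory neurons. Tagged ribosomes were pulled down from whole hippocampus, so the transcripts measured are those bound to ribosomes (TRAP-Seq). There were 5 libraries from non-sleep deprived mice (NSD 2, 3, 4, 5 and B) and 6 from mice kept awake by gentle handling for 5 h from lights on (SD 1, 2, 3, 4, 6 and D), each pooled from 2 mice. All mice of both groups carried the Cre and the tagged allele, and those of both groups were killed at the same time of day.

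Zic proteins are zinc finger transcription factors that resemble the Gli factors of Hedgehog signaling. During development they pattern the dorsal neural tube and the midline of the forebrain, and they stay on in restricted adult regions such as the septum and the cerebellar granule layer. *Avpr1a* encodes the V1a receptor for vasopressin, a Gq-coupled receptor known from the lateral septum, which lies next to the hippocampus and is built mostly of GABAergic neurons. *Ecel1* encodes a membrane protein of the neprilysin family of endopeptidases, *Igfbpl1* a secreted relative of the insulin-like growth factor binding proteins, *Klhl14* a BTB-Kelch protein and *Ankfn1* a protein with ankyrin repeats and a fibronectin type III domain. The label of septal markers could be checked only in part: of the 10 lateral septum genes listed for this comparison, *Avpr1a* was the 1 with a named transcript, and of 9 genes of the medial septum and diagonal band it was *Ngfr*.

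The genes lie on 7 chromosomes of the mouse genome (positions from GENCODE vM21, GRCm38). *Ecel1* lies at chr1:87147655-87156521, *Igfbpl1* at chr4:45809468-45826923, *Ankfn1* at chr11:89390223-89777653 and *Klhl14* at chr18:21550377-21654718, all on the minus strand. Of the exon bases of *Klhl14*, 610 (13.8%) are shared with an antisense gene, *4930426D05Rik*. The kit marks strand but the strand setting of the counting is not given in the sources used here, so reads of *Klhl14* and of this partner may not have been told apart.

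*Zic5* (chr14:122456795-122465677, minus strand) and *Zic2* (chr14:122475435-122479852, plus strand) stand head to head, 9757 bases apart. *Zic1* (chr9:91358058-91365810, minus strand) overlaps *Zic4* on the other strand over 3398 bases of their gene spans, and 60 of its 5693 exon bases (1.05%) are also exon bases of *Zic4*, with the same limit on strand. *Avpr1a* lies at chr10:122448499-122453452 on the plus strand. The Zic genes share sequence in their zinc finger domains, and reads that fitted several places or several transcripts were not counted.

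Because the transcripts moved together across the libraries, the sequences before the starts of *Zic1*, *Zic5* and *Avpr1a* are shown, 3 of the 8 genes, from RefSeq (GRCm38.p6). Each is the stretch of 250 bases before the annotated start, 5′ to 3′ on the strand of the gene, less the bases that GENCODE places in an exon of the gene (42 for *Zic1*, 19 for *Zic5*). Capitals mark the CCAAT box (CCAAT), the TATA box (TATAAA) and the E-box (CACGTG), on either strand.
Zic1, chr9:91365811-91366018, minus strand: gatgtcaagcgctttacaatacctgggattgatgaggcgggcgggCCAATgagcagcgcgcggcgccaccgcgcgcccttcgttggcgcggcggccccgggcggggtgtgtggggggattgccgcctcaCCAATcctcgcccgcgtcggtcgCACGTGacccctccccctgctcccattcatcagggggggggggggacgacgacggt
Zic5, chr14:122465678-122465908, minus strand: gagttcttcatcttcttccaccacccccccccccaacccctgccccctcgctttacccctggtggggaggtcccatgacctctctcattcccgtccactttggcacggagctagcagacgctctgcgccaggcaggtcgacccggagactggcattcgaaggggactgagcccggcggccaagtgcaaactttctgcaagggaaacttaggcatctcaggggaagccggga
Avpr1a, chr10:122448249-122448498, plus strand: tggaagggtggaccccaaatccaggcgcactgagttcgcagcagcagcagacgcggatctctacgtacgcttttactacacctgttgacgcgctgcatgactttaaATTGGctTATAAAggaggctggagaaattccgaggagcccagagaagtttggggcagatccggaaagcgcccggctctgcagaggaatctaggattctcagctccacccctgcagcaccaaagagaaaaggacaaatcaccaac

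The *Zic1* window held CCAAT in 2 places and the E-box CACGTG once, 98 bases before the start, and 27 CpG dinucleotides against a median of 6 over all 32851 promoters of the table. The *Avpr1a* window held TATAAA 137 bases before the start and a CCAAT on the other strand 144 bases before it, and the *Zic5* window held none of the 3 motifs. *Ecel1* also had a window in the table, with 1 CCAAT. Over all promoters, the same 250 bases held CCAAT in 33.8%, TATAAA in 12.4% and CACGTG in 6.02%. The letters CAGCAGG and GGGTGGTC, sites that Zic and Gli proteins are known to bind, were in 8.44% and 0.703% of promoters and were found in none of the 4 windows. The TATAAA and the CCAAT of *Avpr1a* do not overlap.

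The libraries had 22074914 to 29549339 reads assigned to transcripts. NSD 2 stood apart by its share of reads without a unique alignment, 12.3%, against 5.88% to 6.23% elsewhere. Its share of reads outside any annotated feature was also the largest, 27.6%, against 9.97% to 21.1% elsewhere. NSD 2 was the lowest NSD library for every member other than *Ecel1* and *Igfbpl1*, and whether this is tied to those shares was not tested. The level of a transcript is given as CPM, its counts scaled to library size after upper-quartile normalization. Since CPM is not divided by length, levels are compared between libraries and not between genes. The 8 transcripts had few counts, from 4 (*Avpr1a* in SD 3) to 580 (*Zic2* in NSD 4) in a library, so that the Poisson counting error of 1 library ran from 50.0% to 4.15% of the value. Markers of the purified cells were present in every library: *Neurod2*, a transcription factor of excitatory neurons, stood at 283 to 452 CPM and *Emx1*, a homeobox factor of the dorsal telencephalon, at 22.5 to 34.0 CPM. The named transcript of *Camk2a* was low, at 2.32 to 2.76 CPM in NSD and 1.48 to 2.31 CPM in SD. None of the libraries was of total RNA, so the degree of purification was not measured here.

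The 3 Zic transcripts were lower on average in the SD than in the NSD libraries, and spread widely within both groups. *Zic2*, the most counted of the 8, was at 3.81, 10.2, 22.5, 5.82 and 16.6 CPM in NSD 2, 3, 4, 5 and B. In the SD libraries 1, 2, 3, 4, 6 and D it was at 3.91, 8.79, 2.93, 2.45, 2.12 and 2.98 CPM. NSD 4 and NSD B were the highest libraries, SD 2 lay among the NSD libraries, and SD 1 was above NSD 2, so the groups overlapped. In RNA of pooled tissue, fewer cells of a type and less RNA per cell cannot be told apart. The means were 11.8 ± 7.74 CPM in NSD (standard deviation, n = 5) and 3.86 ± 2.49 CPM in SD (standard deviation, n = 6).

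*Zic1* had the same order of the NSD libraries, at 0.786, 1.73, 4.15, 1.51 and 3.75 CPM in NSD 2, 3, 4, 5 and B. Its SD libraries ran from 0.231 (SD 3) through a median of 0.488 to 1.65 CPM (SD 2). All SD libraries other than SD 2 were below the lowest NSD library. *Zic5*, the neighbor of *Zic2*, was at 0.579, 1.34, 2.83, 0.712 and 2.46 CPM in the NSD libraries in that order. In SD it ran from 0.251 (SD 6) through a median of 0.450 to 0.930 CPM (SD 2). As for *Zic1* and *Zic2*, NSD 4 was the highest and NSD 2 the lowest library of the NSD group.

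*Avpr1a*, the vasopressin receptor, was at 0.497, 1.21, 1.71, 0.670 and 1.79 CPM in NSD 2, 3, 4, 5 and B. In SD 1, 2, 3, 4, 6 and D it was at 0.170, 0.550, 0.154, 0.482, 0.323 and 0.431 CPM. Of the 6 SD libraries, 5 lay below the lowest NSD library, and SD 2 was above NSD 2 alone. The means were 1.18 ± 0.587 CPM in NSD (standard deviation, n = 5) and 0.352 ± 0.165 CPM in SD (standard deviation, n = 6), and its SD values rest on 4 to 13 counts per library. The other genes of the vasopressin and oxytocin list, 5 of 6, had no named transcript and were not analysed here.

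The endopeptidase relative *Ecel1* was at 0.745, 0.778, 0.854, 0.628 and 1.21 CPM in the NSD libraries and from 0.231 (SD 3) through a median of 0.431 to 0.676 CPM (SD 2) in SD. Its NSD values were closer together than those of the Zic genes, with the highest 1.92 times the lowest, against 5.91 times for *Zic2*. *Igfbpl1*, which is known from immature neurons, was at 1.37, 1.64, 3.22, 1.26 and 2.87 CPM in NSD and from 0.502 (SD 3) through a median of 0.664 to 1.78 CPM (SD 2) in SD. For *Ecel1* and *Igfbpl1* SD 2 alone reached into the NSD range, and for *Igfbpl1* only NSD 4 and NSD B were above it.

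*Ankfn1* was at 2.23, 3.67, 6.13, 3.98 and 6.20 CPM in the NSD libraries and from 1.37 (SD D) through a median of 2.00 to 2.66 CPM (SD 2) in SD. NSD 2 lay among the SD libraries, below SD 1, SD 2 and SD 3. A second transcript, uc007kwi.1, is named *4932411E22Rik*, which RefSeq lists as a synonym of *Ankfn1*. It was counted from other reads and was lower in SD to the same extent, at 2.81 ± 1.16 CPM in NSD (standard deviation, n = 5) and 1.28 ± 0.426 CPM in SD (standard deviation, n = 6), a log2 fold change of -1.14 (FDR = 0.238, edgeR).

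*Klhl14* had another order of libraries. It was at 0.952, 1.60, 1.01, 1.63 and 0.958 CPM in NSD 2, 3, 4, 5 and B, and at 0.476, 0.803, 0.656, 0.643, 0.538 and 0.719 CPM in SD 1, 2, 3, 4, 6 and D. NSD 4 and NSD B, the highest libraries for most of the others, were near its NSD minimum, and NSD 5 and NSD 3 were the highest. It was also the 1 member whose groups did not overlap, as was so for 0.361% of all transcripts in this direction.

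**Figure D1:**
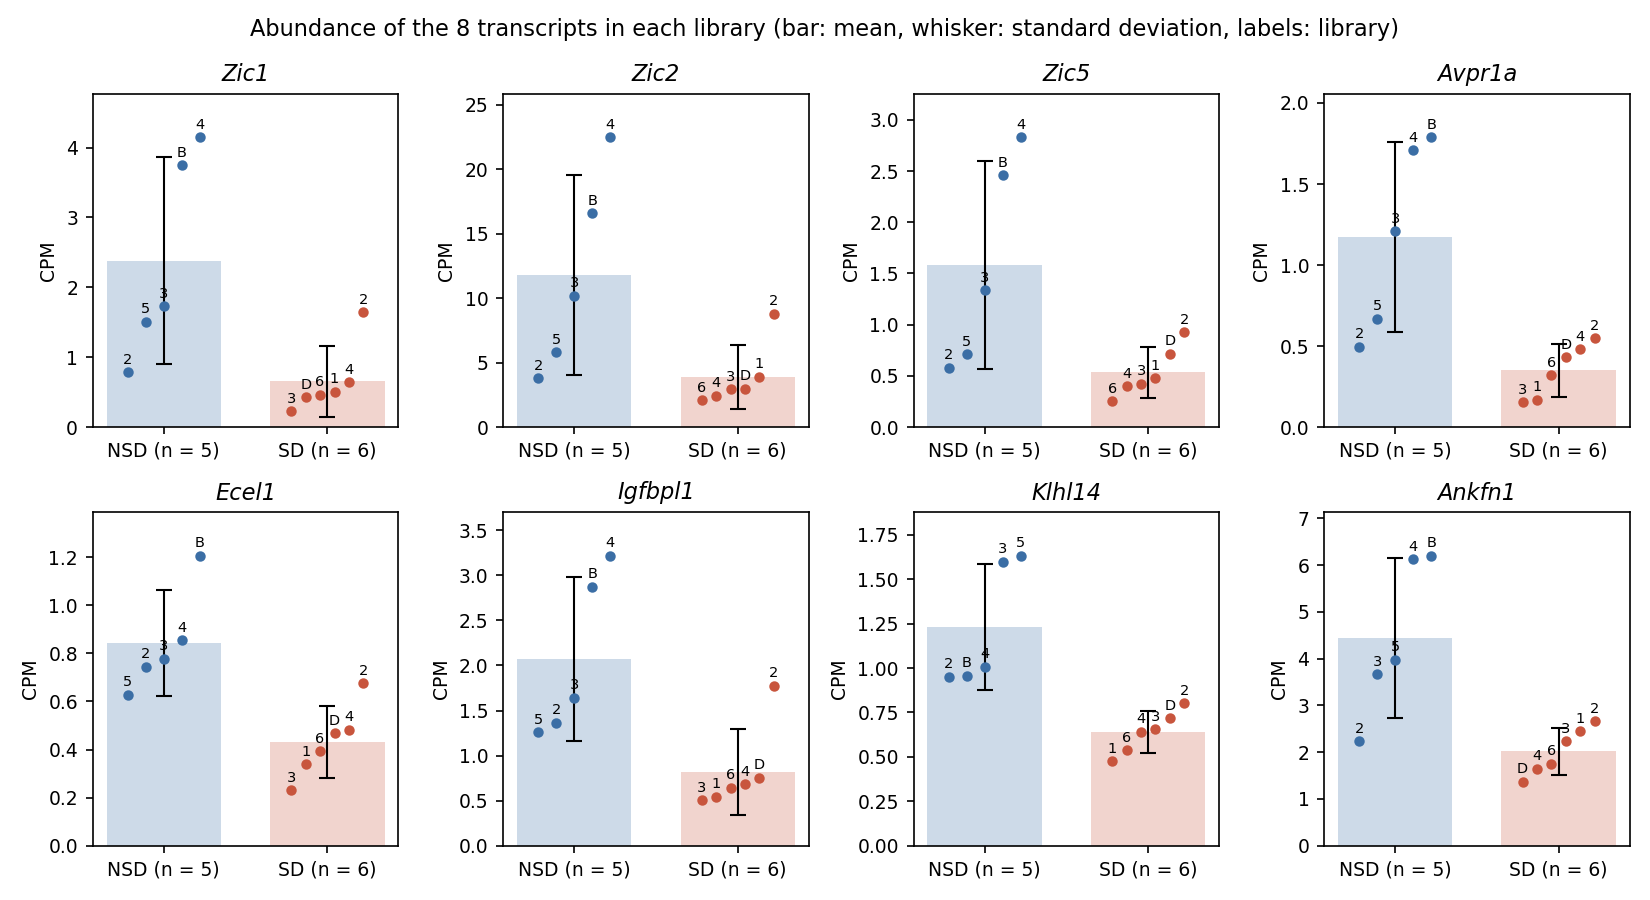
Abundance of each of the 8 transcripts in CPM (vertical axis, from 0) in the 5 NSD and 6 SD libraries; points are libraries with their labels, bars are means and whiskers standard deviations. SD 2 is the highest SD library in all 8 panels, and in the *Klhl14* panel alone the groups do not overlap (lowest NSD value 0.952 CPM, highest SD value 0.803 CPM).

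To ask whether the members differed between SD and NSD mice, all 29599 transcripts were fitted together with edgeR's quasi-likelihood test. The members were chosen with results of these libraries known, and all 8 are in the lists that the study drew from the same libraries, so their direction is not independent evidence. For *Avpr1a* the study also reported quantitative PCR of ribosome-bound RNA, with lower levels after sleep deprivation in males and in females. None of the 8 passed FDR 0.05, which 0.0507% of all transcripts (15) passed. The log2 fold changes (SD minus NSD) were -1.88 for *Zic1* (standard error 0.43, FDR = 0.176), -1.62 for *Zic2* (standard error 0.39, FDR = 0.220) and -1.57 for *Zic5* (standard error 0.40, FDR = 0.269). For *Avpr1a* the log2 fold change was -1.74 (standard error 0.38, FDR = 0.150) and for *Ankfn1* -1.14 (standard error 0.24, FDR = 0.134). *Igfbpl1* was at -1.35 (standard error 0.33, FDR = 0.238), *Ecel1* at -0.97 (standard error 0.29, FDR = 0.548) and *Klhl14* at -0.94 (standard error 0.25, FDR = 0.312). Their median was -1.46 on the log2 scale, beside 0.01 over all transcripts tested, and 48.0% of those were below 0.

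At an unadjusted p below 0.05 in the same test, all 8 members were lower in SD, as were 1.91% of all transcripts. The two-sided exact permutation test of log2 CPM over all 462 divisions of the 11 libraries into 5 and 6 gave an unadjusted p of 0.0281 for *Zic2*, 0.0216 for *Zic5*, 0.0130 for *Zic1*, 0.0108 for *Igfbpl1* and *Ankfn1*, 0.00649 for *Ecel1* and 0.00433 for *Avpr1a*. For *Klhl14* the permutation p was 0.00216, the smallest that 5 against 6 libraries allow. By that test 2.64% of all transcripts were lower in SD at p below 0.05.

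How many members were called depended on the tool and the filter. DESeq2 called *Zic1*, *Zic5*, *Igfbpl1* and *Ankfn1* (4 members, beside 0.456% of all transcripts), and gave *Avpr1a* and *Ecel1* no adjusted p, so these could not be called. The share of 0.456% is taken over all transcripts, with or without an adjusted p, so it is too low for those that could be called. The edgeR likelihood ratio test called *Zic1*, *Zic2*, *Avpr1a*, *Igfbpl1* and *Ankfn1* (5 of 8, beside 0.220%). Without the filter on low counts the quasi-likelihood test called these 5 and *Zic5* (6 of 8, beside 0.0938%). After edgeR's filterByExpr it called *Klhl14* alone (1 of 8, beside 0.993%), and so it did with at least 10 counts required in every library, where 4 members were tested and 1.97% of transcripts called. The limma voom fit with quality weights called *Ankfn1* (1 of 8, beside 0.196%). *Ecel1* was called in none of the fits that gave it an adjusted p.

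Leaving out 1 library also moved the calls. Without SD 2, *Zic1* (log2 fold change -2.38), *Zic2* (-2.03) and *Igfbpl1* (-1.72) passed FDR 0.05. *Ankfn1* passed without NSD 2 (log2 fold change -1.31) and without SD 1 (-1.20). With any other library left out, none of the 8 passed. With the 3 libraries that stood apart left out together (NSD 4, NSD B and SD 2, a choice made after seeing the data), none passed and the log2 fold changes lay between -1.55 (*Zic1*) and -0.80 (*Ankfn1*).

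The members moved together across the libraries. Over the 11 libraries, the Pearson r of log2 CPM was above 0 for all 28 pairs, with a median of 0.865 and a range of 0.562 to 0.963, and Spearman's rho had a median of 0.818. The pooled values include the difference between the groups. The groups overlapped for every member other than *Klhl14*, so the pooled r of its pairs spans groups that are separate. With each group's mean removed, the median r was 0.713 and the range -0.111 to 0.931. Within the 6 SD libraries it was 0.612, a value to which SD 2 contributes in every gene, while the median rho was 0.429. Without the 2 libraries farthest from the median of the mean member level (NSD 4 and NSD B), the median r was 0.750. These values share the libraries and their scaling and are given as a description.

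The neighbors *Zic2* and *Zic5* had the largest r of the 28 pairs over all libraries (0.963) and with the group means removed (0.931). Within SD their r was 0.822, and 4 pairs had a larger one, up to 0.926 for *Avpr1a* and *Ecel1*. Without NSD 4 and NSD B the largest r was that of *Ecel1* and *Igfbpl1* (0.929), beside 0.903 for *Zic2* and *Zic5*. *Zic1*, on another chromosome, had an r of 0.938 with *Zic2* and of 0.961 with *Igfbpl1*. *Avpr1a* and *Ecel1* had an r of 0.929, and the same rank order of the 6 SD libraries (rho of 1.0). *Ankfn1* was closest to *Zic2* (r of 0.919) and less close to *Avpr1a* (0.769) and *Ecel1* (0.702). With the group means removed the last 2 values were 0.430 and 0.254.

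*Klhl14* departed from the others in the NSD group, where it was low in NSD 4 and NSD B. Its r with the other 7 lay between 0.562 and 0.684 over all libraries, and between -0.111 and 0.122 once the group means were removed, where the other 21 pairs lay between 0.254 and 0.931. Within the 6 SD libraries its r with the others had a median of 0.539 and its rho a median of 0.543, beside medians of 0.701 and 0.371 for the 21 pairs without it. With NSD 4 and NSD B left out of the 11, its r with the others was 0.705 to 0.823 (median 0.748), beside a median of 0.785 for the other 21 pairs. Within SD the member with the lowest values was *Ankfn1*, whose r with the others had a median of 0.240 and was -0.34 with *Avpr1a* and -0.05 with *Ecel1*, and whose rho had a median of 0.0286.

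**Figure D2:**
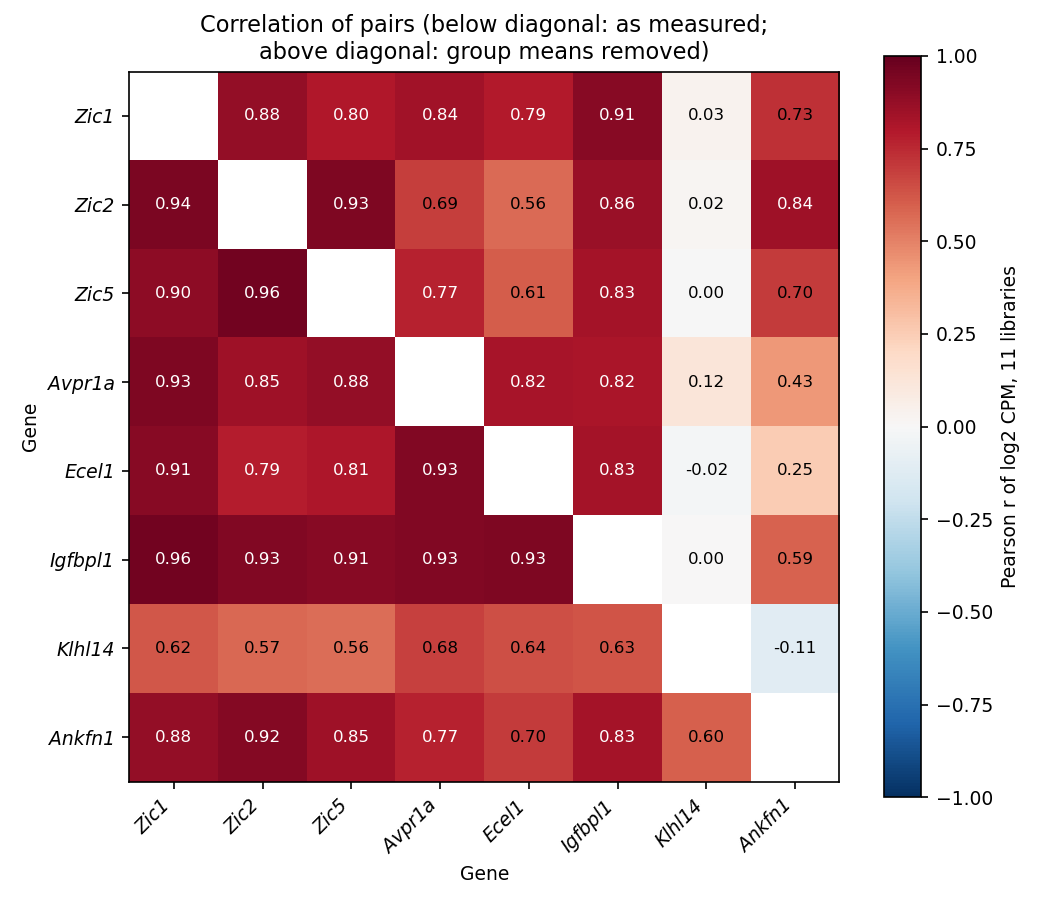
Pearson r of log2 CPM for the 28 pairs of members over 11 libraries, as measured below the diagonal and with each group's mean removed above it; color runs from -1 to 1. All cells below the diagonal are above 0, while the *Klhl14* cells above the diagonal lie between -0.111 and 0.122.

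The transcripts whose levels were most like those of the members included genes of GABAergic neurons. Among 15599 transcripts outside the members with at least 1 CPM in at least 3 libraries, the 20 with the largest r with the mean scaled level of the members had r between 0.882 and 0.974, and 19 had a name. Of the 20, 5 are transcripts of genes on the inhibitory neuron list. Among the first 3 were *Slc32a1* (r of 0.973), the vesicular transporter of GABA and glycine, and a *Gad2* transcript (uc008ink.1, r of 0.971), which encodes the GABA-producing enzyme GAD65. *Clic4*, a chloride intracellular channel protein, had the largest r (0.974). The transcription factors *Zfhx3* (0.963), *Sox1* (0.959), *Sp9* (0.946), *Prdm12* (0.904) and *Dlx6* (0.902) were also among the 20. So were *A230065H16Rik*, *Ndnf*, a second *Gad2* transcript, *Npffr1*, *Baiap3*, *4932411E22Rik*, *Fndc9*, *Magel2*, *Gm13111*, *Ak8* and *Glp1r*.

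With the group means removed, these 20 had r with the members between 0.742 and 0.972, and 12 of them were also among the 20 most alike by that measure. In 19 of the 20, SD 2 was the highest SD library. All 20 had a lower mean in SD, which the way they were found makes likely, and none passed FDR 0.05. Names were at hand for 2257 of the 29599 transcripts tested, and these favor transcripts that differed between SD and NSD in the study's own fit, so other transcripts as alike may have no name here.

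Of the 14 inhibitory neuron markers compared, 5 genes had 7 named transcripts, and all 7 were lower on average in SD, with a median log2 fold change of -1.39 beside 0.01 over all transcripts. The names favor transcripts that differed between SD and NSD in the study's own fit, so these 7 are not an even sample of the list. The markers without a name were not measured here. None of the 7 passed FDR 0.05, and none was at 0 in any library. By quantitative PCR the study found a marker of inhibitory neurons depleted in the pull-downs against total RNA. In males this depletion did not differ between SD and NSD samples. Whether the reads of these 7 transcripts came from tagged ribosomes was not tested. *Gad2* (uc008ink.1) was at 20.4, 43.1, 77.8, 36.0 and 92.2 CPM in NSD 2, 3, 4, 5 and B and at 17.3, 42.7, 13.5, 15.1, 16.7 and 18.3 CPM in SD 1, 2, 3, 4, 6 and D. NSD B, NSD 4 and SD 2 stood out here as they did for the Zic genes. *Slc32a1* was at 3.13 ± 1.73 CPM in NSD (standard deviation, n = 5) and 1.01 ± 0.817 CPM in SD (standard deviation, n = 6). *Dlx2*, a homeobox factor of GABAergic neurons, had an r of 0.936 with the members. The *Gad2* transcript uc008inj.1 followed the members least of the 7 (r of 0.681, log2 fold change -0.64). Its highest SD library was SD 1, at 0.544 CPM, beside 0.507 CPM in SD 2. The summed level of the 7 transcripts ran from 28.1 to 119 CPM in NSD and from 17.8 to 57.6 CPM in SD.

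**Figure D3:**
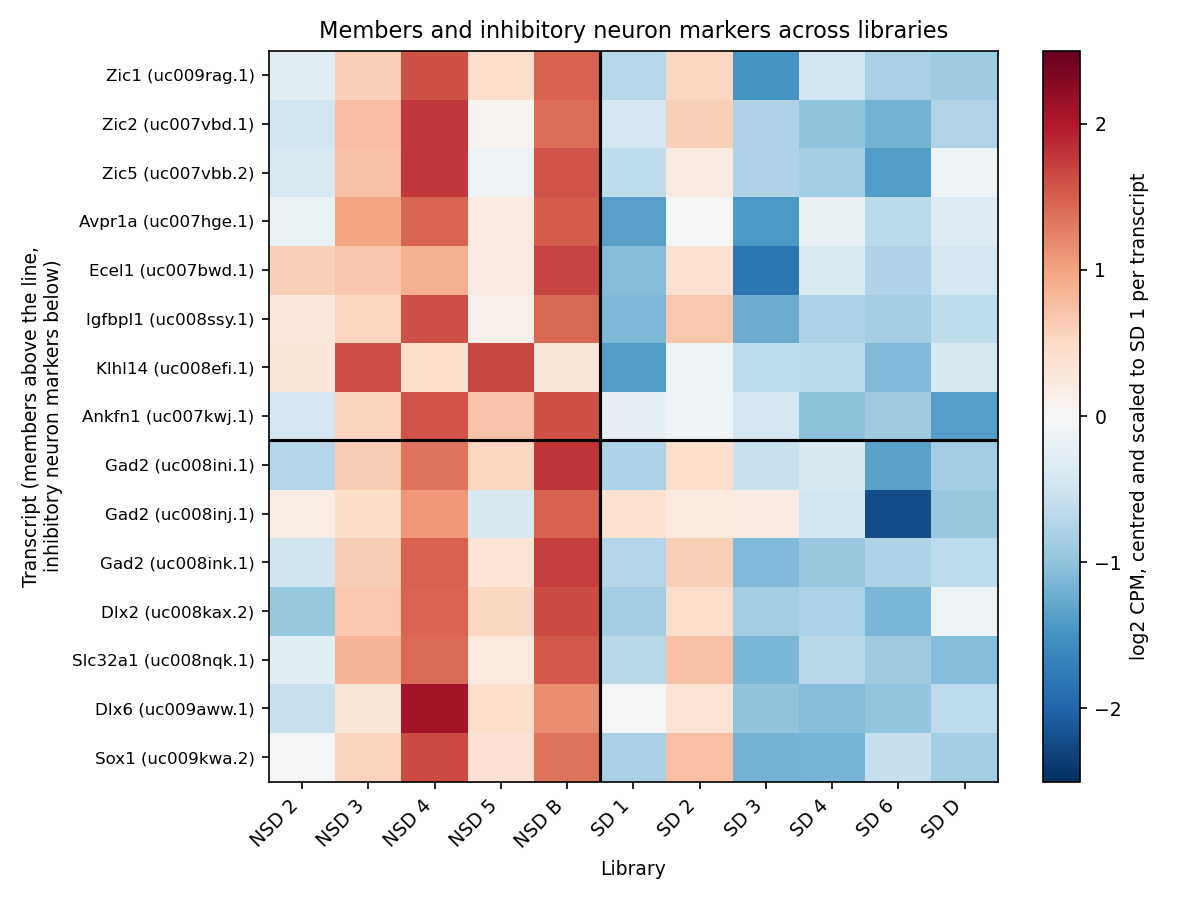
log2 CPM of the 8 members (above the horizontal line) and of the 7 named transcripts of inhibitory neuron markers (below it) in the 11 libraries, each row centered and scaled to a standard deviation of 1; NSD libraries are left and SD libraries right of the vertical line. Most rows are highest in NSD 4 and NSD B and have SD 2 as their highest SD library, whereas *Klhl14* is highest in NSD 5 and NSD 3.

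The ratio of *Zic2* to *Gad2* was more even than either level. It lay between 0.162 and 0.289 in the NSD libraries and between 0.126 and 0.225 in the SD libraries, while *Zic2* itself ranged from 2.12 to 22.5 CPM. SD 2 had a ratio of 0.206 and NSD 2 one of 0.187. The r with *Gad2* over the 11 libraries was 0.973 for *Zic1*, 0.966 for *Zic2*, 0.954 for *Igfbpl1*, 0.936 for *Zic5*, 0.907 for *Ankfn1*, 0.905 for *Avpr1a* and 0.869 for *Ecel1*, against 0.602 for *Klhl14*. With the group means removed the value for *Klhl14* was 0.0524, and those for the other 7 lay between 0.723 and 0.947. Within the 6 SD libraries it was 0.563, above that of *Ankfn1* (0.474), and without NSD 4 and NSD B it was 0.767, within the range of the other 7 (0.755 to 0.944).

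**Figure D4:**
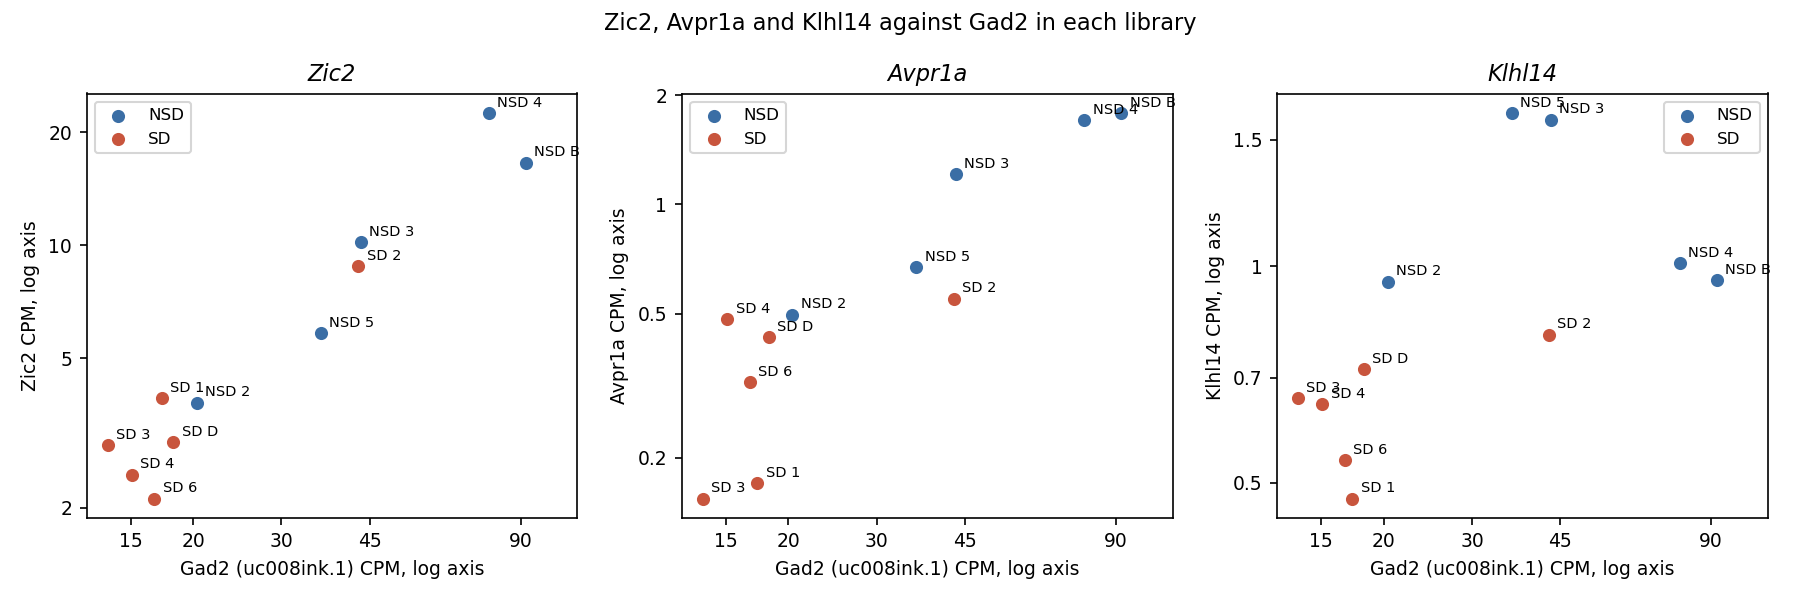
CPM of *Zic2*, *Avpr1a* and *Klhl14* (vertical axes, logarithmic) against CPM of *Gad2* (uc008ink.1; horizontal axes, logarithmic) in the 5 NSD and 6 SD libraries, labeled by library. *Zic2* and *Avpr1a* rise with *Gad2* (r of 0.966 and 0.905 on the log2 scale), while *Klhl14* is at 0.958 CPM where *Gad2* is highest, at 92.2 CPM.

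With the level of *Gad2* added to the edgeR fit (a term chosen after seeing the data), the log2 fold change of *Zic2* was -0.02 (95% confidence interval -0.52 to 0.49) and that of *Zic1* -0.26 (-0.92 to 0.40). *Zic5* was at -0.10 (-0.91 to 0.71), *Igfbpl1* at -0.34 (-0.95 to 0.28) and *Ankfn1* at -0.36 (-0.94 to 0.21). *Avpr1a* was at -0.59 (-1.50 to 0.32) and *Ecel1* at -0.43 (-1.21 to 0.34). *Klhl14* stayed at -0.93 (-1.67 to -0.19), near its value without the term, with FDR = 0.9998 in that fit. *Gad2* itself was lower on average in SD (log2 fold change -1.39, FDR = 0.176), so the term and the group share part of their variation. This *Gad2* transcript was also chosen for its likeness to the members, so the shifts follow the r given above and are a description, not a test of the part of a cell type.

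**Figure D5:**
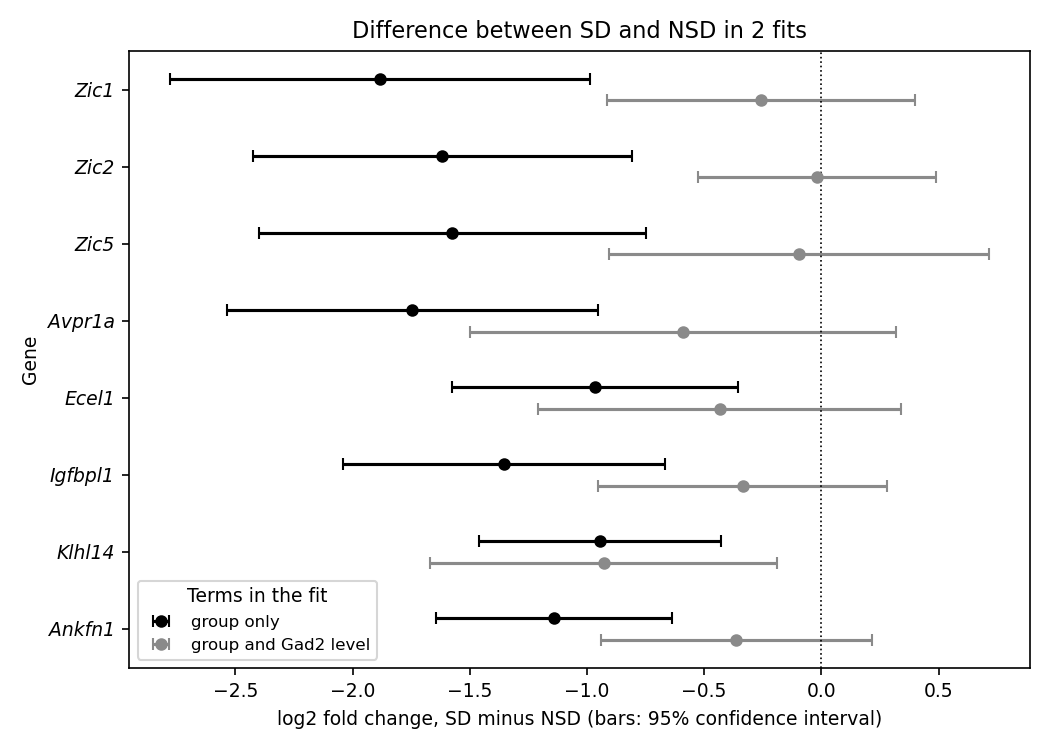
log2 fold change of SD minus NSD for the 8 members (horizontal axis) with 95% confidence intervals, from the fit with the group alone (black) and from the fit with the group and the *Gad2* level (gray). With *Gad2* in the fit 7 of the 8 intervals include 0, and that of *Klhl14* runs from -1.67 to -0.19.

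Markers of other regions and cell types were measured where they had names. *Ngfr*, known from cholinergic neurons of the medial septum, was at 3.60 to 4.80 CPM in NSD and 4.27 to 5.81 CPM in SD, and its r with the members was -0.65. *Ndnf*, the 1 named gene of 5 listed for Cajal-Retzius cells, had an r of 0.943. It was at 15.6 ± 5.11 CPM in NSD (standard deviation, n = 5) and 10.2 ± 2.00 CPM in SD (standard deviation, n = 6). The other genes of that list were not measured here, so these values hold for *Ndnf* alone. Of the thalamic markers, *Prkcd* had an r of 0.828 and *Rgs16* of -0.52. The excitatory neuron markers were less alike, with an r of 0.515 for a *Camk2a* transcript, 0.197 for *Emx1* and -0.22 for *Neurod2*. The *Camk2a* transcript was also lower on average in SD (log2 fold change -0.41), and did not pass FDR 0.05 in edgeR's test. The r was -0.50 for *Foxj1* of ciliated ependymal cells and -0.41 for *Mbp* of oligodendrocytes. The part of any of these cell types in the levels of the 8 transcripts was not tested.

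The families of the members had few named relatives. *Zic4* was not analysed here. *Gli1*, an effector of Hedgehog signaling, was at 0.475 to 0.869 CPM in NSD and 0.127 to 0.645 CPM in SD, with an r of 0.260. *Igfbp3*, of the insulin-like growth factor binding proteins, was at 19.4 to 27.7 CPM in NSD and 23.2 to 33.9 CPM in SD, with an r of -0.48, and neither passed FDR 0.05. Of the immature neuron list, which also holds *Igfbpl1*, *Sox11* rose in SD (log2 fold change 0.66, FDR = 0.0139) with an r of -0.67, and *Sox4* had a log2 fold change of 0.27 (FDR = 0.797) with an r of -0.59. Of the remaining lists, the striatum and the meninges had no named transcript, and the neprilysin family none beside *Ecel1*.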

How the data were processed

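Ribosome-associated RNA of male CaMKIIα-Cre:RiboTag mice was sequenced in 11 libraries (5 NSD, 6 SD). According to the submitters' processing notes and the paper's methods, reads were trimmed with Trimmomatic 0.36, aligned to mm10 with STAR 2.7.5 and counted with HTSeq in intersection-nonempty mode. The deposited values are raw counts per UCSC transcript, without normalization. Reads shared by several transcripts were kept by the authors in a tally of ambiguous reads (37.2% to 52.0% of a library), so a transcript's count covers only its unshared stretches. The tallies were left out of library sizes. Libraries were grouped by their labels. Columns spelled SID were matched to samples titled SD by their shared number or letter. The labels do not say whether libraries of a group came from separate days or cohorts.

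The table has no gene names. Names came from the gene lists supplied with the study, by matching each listed statistic to 1 transcript of a refit, which named 2257 transcripts, the 8 members among them. Some genes of the lists are not reported here. The members and all lists of markers were chosen with earlier results of these data known.

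A transcript was tested if 5 or more libraries held at least 1 count of it (29599 transcripts). The test was edgeR's quasi-likelihood test (two-sided, edgeR 4.0.16, limma 3.58.1, R 4.3.3) with upper-quartile factors and Benjamini-Hochberg adjustment at FDR 0.05. CPM was computed with these factors, and a prior count of 2 was added for log2 CPM. For single transcripts an exact permutation test (two-sided) was added, whose smallest p was 0.00216. The p-values set the difference between the groups against the spread between libraries, each a pool of 2 mice. Likeness to the members was the Pearson r with the mean of their log2 CPM, each scaled to a standard deviation of 1. The 20 largest and 5 smallest were named where a name was at hand, and marker-list genes likewise, up to 4 per list and any called. Alternatives were TMM, DESeq2 1.42.0, the likelihood ratio test, 3 other filters, voom, the series of labels (numbers or letters) as a term, each library left out and a block by replicate number. The quasi-likelihood, DESeq2 and voom fits were tested on simulated data. Same-numbered libraries (2, 3 and 4) did not deviate together (correlations of -0.591, -0.638 and -0.712). No pair of libraries within a group agreed within sampling noise. Figures were drawn with matplotlib 3.10.9.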

Additional observations from a re-analysis of the deposited data

Results flagged for a closer look

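Within each group of libraries, the highest or lowest value was set against the gap to its nearest neighbor for the members, the named transcripts of the marker lists and those most like the members. In 11 of 88 combinations of transcript and group the gap was wider, relative to the range, than Dixon's 95% limit (0.71 for 5 libraries, 0.625 for 6), and in all 11 the library was SD 2, as the highest of the SD group. Chance flags about 1 in 20 groups of independent transcripts, which is no measure for these 11: they vary together, and those most like the members were chosen for following the members, all 8 of which were highest in SD 2 within the SD group. The count is a description.

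Of the members, *Zic1* was at 1.65 CPM in SD 2 against at most 0.643 in the other SD libraries, *Zic2* at 8.79 against 3.91 and *Igfbpl1* at 1.78 against 0.755. Of the inhibitory neuron markers, *Gad2* was at 42.7 CPM against 18.3 (uc008ink.1) and at 0.888 against 0.402 (uc008ini.1), *Slc32a1* at 2.66 against 0.815 and *Sox1* at 9.05 against 3.33. Of the other transcripts most like the members, *Clic4* was at 18.5 CPM against 12.3, *Zfhx3* at 7.82 against 5.61, *A230065H16Rik* at 2.11 against 0.467 and *Glp1r* at 5.45 against 2.37. The values of *Zic5*, *Avpr1a*, *Ecel1*, *Klhl14* and *Ankfn1* in SD 2 were also the highest of the SD group, within the limit.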

How the results depend on the processing

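The log2 fold changes of the 8 members were below 0 under every alternative run. None was called in the main test. DESeq2 called 4 members, *Zic1* (-1.90), *Zic5* (-1.59), *Igfbpl1* (-1.38) and *Ankfn1* (-1.15), and gave *Avpr1a* and *Ecel1* no adjusted p. The likelihood ratio test called 5, *Zic1* (-1.87), *Zic2* (-1.61), *Avpr1a* (-1.74), *Igfbpl1* (-1.35) and *Ankfn1* (-1.14). Without a filter 6 were called, *Zic1* (-1.86), *Zic2* (-1.60), *Zic5* (-1.56), *Avpr1a* (-1.73), *Igfbpl1* (-1.33) and *Ankfn1* (-1.13). With filterByExpr and with 10 counts in every library *Klhl14* alone was called (-0.97 in both), and with voom *Ankfn1* alone (-1.24), 1 member in each case. With the label series or *Gad2* as a term or TMM, 0 were called. With 1 library left out, 0 to 3 members were called, and the log2 fold changes ran from -2.38 to -1.58 for *Zic1*, -2.03 to -1.24 for *Zic2*, -1.79 to -1.25 for *Zic5*, -1.94 to -1.54 for *Avpr1a*, -1.13 to -0.80 for *Ecel1*, -1.72 to -1.14 for *Igfbpl1*, -1.02 to -0.82 for *Klhl14* and -1.31 to -0.99 for *Ankfn1*. The cause of these changes was not tested. Of all transcripts, 15 were called in the main test, 62 with TMM, 135 with DESeq2, 65 with the likelihood ratio test, 191 with filterByExpr, 33 without a filter, 311 with 10 counts in every library, 58 with voom, 8 with the label series as a term, 2 with *Gad2* as a term, 0 without NSD 4, NSD B and SD 2 (861 at an unadjusted p below 0.05) and 1 (without NSD B) to 69 (without SD 1) with 1 library left out. With the replicate block over the 6 libraries with shared numbers, 6 transcripts and no member were called, against 3 and no member in these libraries without the block, and *Zic2* was at -1.33 (FDR = 0.103, edgeR). The numbers share only a label. The exact permutation p was below 0.05 for all 8 members with CPM and with a prior count of 0.5 too. The median r of the 28 pairs was 0.865, 0.713 with group means removed, and 0.821 to 0.888 with 1 library left out. At FDR 0.1 the main test called no member. Members with fewer than 10 counts in a library could not be tested under the strictest filter. The lowest count in a library was 4 for *Avpr1a* and 6 for *Ecel1* and *Zic1*, a counting error of 50.0% and 40.8%.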

Other observations

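Some levels ran against those of the members. The lowest r among the 15599 transcripts compared was that of *Ccdc58* (-0.85), at 2.202 ± 0.453 CPM in NSD (standard deviation, n = 5) and 2.79 ± 0.239 CPM in SD (standard deviation, n = 6). *Rims2*, an active zone protein of presynaptic terminals, had an r of -0.83 (log2 fold change 0.43, FDR = 0.9999 in edgeR's test), and *3110043O21Rik* one of -0.83 (log2 fold change 0.38). The other 2 of the 5 had no name.

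Among the transcripts most like the members, *Glp1r*, the receptor of glucagon-like peptide 1, had a larger r once the group means were removed (0.912, against 0.882 over all libraries). *Magel2*, an imprinted gene, and *Baiap3* had r of 0.886 and 0.905. *Prdm12* had the largest log2 fold change in size of these 20, at 1.68 ± 1.38 CPM in NSD (standard deviation, n = 5) and 0.365 ± 0.366 CPM in SD (standard deviation, n = 6), a log2 fold change of -2.23 (FDR = 0.306 in edgeR's test).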
